A study of Mus musculus with 4 samples.

Results

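Natural killer (NK) cells were picked out of single-cell RNA profiles of B16F10 melanomas grown in mice, from 4 tumour libraries. A barcode was taken as an intact NK cell when it had at least 300 genes, at least 500 unique molecular identifiers (UMIs, each standing for 1 captured RNA molecule), at most 20% mitochondrial UMIs and at least 10% of its UMIs in genes of ribosomal proteins. It also had to carry 2 or more UMIs in the sum of the 5 NK receptor genes Ncr1, Klrb1c, Klre1, Klra8 and Klra4, no UMI of Cd3d, Cd3e, Cd3g, Cd8a or Cd8b1, and fewer than 10 UMIs of the pigment genes Pmel, Mlana, Tyrp1 and Dct. This gate kept 104 cells of 10602 barcodes, or of the 9461 barcodes that passed the filters on genes, UMIs and mitochondrial share alone (kept barcodes).

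The D+F+P library came from tumours treated with doxorubicin, an anthracycline, fasudil, an inhibitor of ROCK kinases, and a blocking antibody to PD-1. The D+F library had doxorubicin and fasudil without the antibody, the aPD-1 library had the antibody by itself, and the control library is labelled only as control. The letters are read from the study's design text, which names these 3 agents. The submitters describe the model as resistant to checkpoint blockade and asked how the triple combination acts on the tumour microenvironment. B16F10 is a pigmented melanoma line of the C57BL/6 mouse. Doses, times, the age of the mice and the number of mice behind each library are not given in the labels. With 1 library per group no difference between groups has a replicate check. The intervals given beside shares and ratios are exact 95% intervals that cover counting error only.

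NK cells are innate lymphocytes that read activating and inhibitory receptors on a target cell and need no rearranged antigen receptor. They kill by releasing perforin and granzymes from granules, and they secrete interferon gamma and chemokines such as Ccl5 and Xcl1, the last of which draws cross-presenting dendritic cells into tumours. The transcription factors Eomes and T-bet (Tbx21) shape them, and the adaptors DAP12 (Tyrobp), FcR gamma (Fcer1g) and DAP10 (Hcst) carry the signals of their receptors.

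The 4 libraries held between 22691663 and 34444856 UMIs over 31053 genes. The NK cells had a median of 4152 UMIs in D+F+P, 2577 in D+F, 3599 in aPD-1 and 2974 in control, and summed to 213685, 53810, 119500 and 103816 UMIs. Single cells weigh heavily in such small sums: the 2 deepest NK cells held between 19.3% (aPD-1) and 24.5% (D+F) of their library's NK UMIs. Between 2 and 17 barcode sequences occurred in both libraries of any pair, and none of them was an intact NK cell in both.

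The gate genes were each seen in a part of the cells. Klre1 had a UMI in 67 of the 104 cells, Klra4 in 55, Klra8 in 53, Klrb1c (NK1.1) in 52 and Ncr1 (NKp46) in 43. Klra genes are near-identical in sequence, so counts of single members are uncertain. Genes that the gate did not use point the same way as the label. Eomes had a UMI in 42 of 104 cells, 12 in D+F+P, 6 in D+F, 12 in aPD-1 and 12 in control, and both Tyrobp and Fcer1g had one in 99 of 104. Sums over markers of other cells were low for some lists and libraries but not for all. The T cell list of 16 genes, 5 of which the gate holds at 0, summed to 262, 204, 276 and 164 CPM (UMIs scaled to a sum of 1000000 in each set of cells) in the NK cells of D+F+P, D+F, aPD-1 and control, against 5783, 5415, 6151 and 4650 CPM in T cells of the same libraries. The melanoma list summed to 154, 985, 435 and 424 CPM and the B cell list to 74.9, 74.3, 41.8 and 86.7 CPM in the NK cells of D+F+P, D+F, aPD-1 and control. In T cells the melanoma list was at 147, 442, 297 and 402 CPM in the same order. The myeloid list, taken up again below, summed to 337, 576, 427 and 1368 CPM in NK cells, against 425, 483, 855 and 355 CPM in T cells. Many barcodes lay near the limits of the gate. Of the members, 27 had exactly 2 NK UMIs, while 41 barcodes with 1 NK UMI met every other condition. A single Cd3 UMI kept 19 further barcodes out, any Cd8 UMI 8, and pigment UMIs of 10 or more 3. Another 5 members had ribosomal shares between 10% and 12%, and 9 barcodes between 8% and 10% fell just outside.

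NK cells made up a small share of the kept barcodes in each library. They numbered 32 of 2445 in D+F+P (1.31%, interval 0.897% to 1.84%), 18 of 2490 in D+F (0.723%, 0.429% to 1.14%), 26 of 2240 in aPD-1 (1.16%, 0.760% to 1.70%) and 28 of 2286 in control (1.22%, 0.815% to 1.77%). D+F had the lowest share and D+F+P the highest, and the intervals of neighbouring libraries overlapped. Kept barcodes had a median of 1876, 12887.5, 9589 and 16162.5 UMIs in D+F+P, D+F, aPD-1 and control. Of those with a ribosomal share of 10% or more, NK cells were 2.12% (1.45% to 2.98%) in D+F+P and 0.793% (0.470% to 1.25%) in D+F. These intervals did not overlap. In aPD-1 the share was 1.35% (0.882% to 1.97%) and in control 1.30% (0.868% to 1.88%). T cells, taken as barcodes with 2 or more Cd3 UMIs and no NK gate UMI, numbered 412 in D+F+P, 228 in D+F, 304 in aPD-1 and only 37 in control. NK cells were therefore 7.21% (4.98% to 10.0%) of NK plus T cells in D+F+P, 7.32% (4.39% to 11.3%) in D+F, 7.88% (5.21% to 11.3%) in aPD-1 and 43.1% (30.8% to 56.0%) in control. The control share stood apart from the other 3, whose intervals overlapped, and the NK counts behind it were alike while the T cell counts were not. Without the condition on NK gate UMIs, T cells numbered 585 in D+F+P, 299 in D+F, 464 in aPD-1 and 43 in control. Barcodes that met the NK gate but had a ribosomal share under 10% numbered 14 in D+F+P, 4 in D+F, 5 in aPD-1 and 0 in control. Counting them in gives D+F+P a share of 1.88% of kept barcodes.

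**Figure D1:**
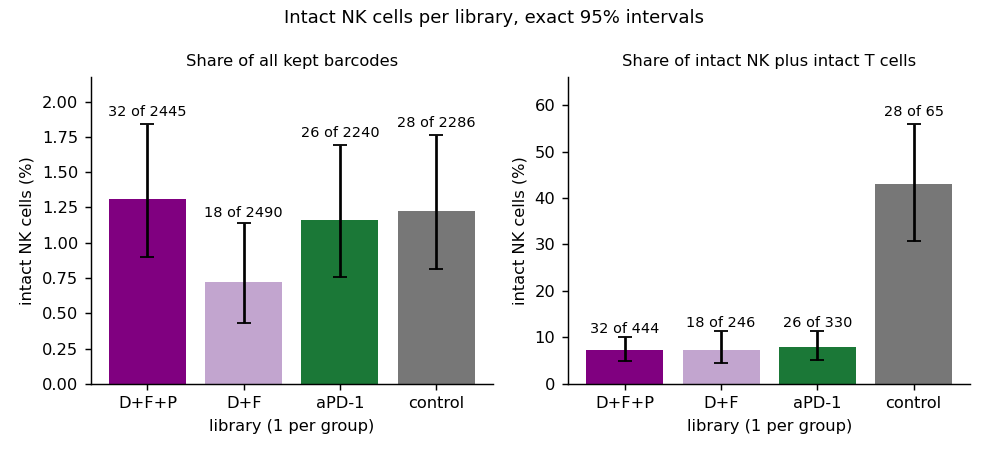
Intact NK cells as a percent of kept barcodes and as a percent of NK plus T cells in the D+F+P, D+F, aPD-1 and control libraries, with exact 95% intervals that cover counting error only. The shares of kept barcodes lie between 0.723% and 1.31%, while NK cells were 43.1% of NK plus T cells in control and 7.21% to 7.88% in the other 3 libraries.

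The sharpest differences between libraries lay in the granzyme C to G genes, serine proteases of the cytotoxic granule whose substrates are less known than those of granzyme B. They lie side by side on the minus strand of mouse chromosome 14 (GRCm38), with Gzmc at chr14:56231441-56234656, Gzmd at chr14:56129556-56132608, Gzme at chr14:56117626-56120625, Gzmf at chr14:56205263-56211417 and Gzmg at chr14:56156582-56159579. They are close copies of each other, so how reads were split between them is uncertain. The promoters of Gzmc, Gzmd and Gzmg, the 250 bases before the RefSeq start (GRCm38.p6), are shown with that of Gzmb, which lies nearby at chr14:56258838-56262260 for comparison, because the largest ratios between libraries were in these granzymes. Capitals mark matches to the RUNX core motif TGTGGT, or ACCACA on the other strand, and to the AP-1 motif TGANTCA.
Gzmc promoter (chr14:56234658-56234907, minus strand): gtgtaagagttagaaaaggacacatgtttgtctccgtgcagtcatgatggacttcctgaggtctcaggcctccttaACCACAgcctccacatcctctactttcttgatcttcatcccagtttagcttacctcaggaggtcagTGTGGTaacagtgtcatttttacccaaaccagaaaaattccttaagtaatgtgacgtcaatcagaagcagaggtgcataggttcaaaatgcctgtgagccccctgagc
Gzmd promoter (chr14:56132594-56132843, minus strand): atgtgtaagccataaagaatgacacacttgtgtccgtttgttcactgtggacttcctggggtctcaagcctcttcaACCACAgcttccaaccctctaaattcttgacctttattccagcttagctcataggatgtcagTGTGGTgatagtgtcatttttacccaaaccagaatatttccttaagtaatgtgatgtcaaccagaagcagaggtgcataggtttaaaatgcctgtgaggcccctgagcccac
Gzmg promoter (chr14:56159580-56159829, minus strand): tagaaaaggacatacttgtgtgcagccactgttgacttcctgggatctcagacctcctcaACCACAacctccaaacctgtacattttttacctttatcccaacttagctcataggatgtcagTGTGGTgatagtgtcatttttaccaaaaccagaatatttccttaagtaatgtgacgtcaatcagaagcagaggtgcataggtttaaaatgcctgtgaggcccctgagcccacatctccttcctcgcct
Gzmb promoter (chr14:56262335-56262584, minus strand): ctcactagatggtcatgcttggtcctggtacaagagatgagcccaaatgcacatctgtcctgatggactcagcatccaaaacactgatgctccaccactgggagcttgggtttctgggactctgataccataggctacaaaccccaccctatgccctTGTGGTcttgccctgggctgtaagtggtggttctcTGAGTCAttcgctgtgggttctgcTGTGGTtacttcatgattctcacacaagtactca
Each of Gzmc, Gzmd, Gzme, Gzmf and Gzmg has 2 RUNX matches, ACCACA followed by TGTGGT, spaced 66 bases apart in Gzmc and 62 bases apart in the other 4. At least 1 match is present in 14.0% of 32851 promoters of this length and 2 or more in 1.27%. Gzmb also has 2, both TGTGGT, 59 bases apart, and 1 AP-1 match, which 6.75% of promoters hold. The run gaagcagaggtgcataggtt stands in the promoters of the 5 genes and in no other entry of the table. These are matches of letters only, and no binding was measured.

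Gzmc had 2497 UMIs in the NK cells of D+F+P, 37 in D+F, 1227 in aPD-1 and 264 in control, which is 11685, 688, 10268 and 2543 CPM. D+F+P and aPD-1 were high, control lower and D+F lowest. The log2 ratio was 2.20 (interval 2.02 to 2.39) for D+F+P against control, 2.01 (1.82 to 2.21) for aPD-1 against control, -1.89 (-2.42 to -1.39) for D+F against control and 4.09 (3.62 to 4.60) for D+F+P against D+F. Between D+F+P and aPD-1 the ratio was 0.19. Gzmd had 733 UMIs in D+F+P, 0 in D+F, 235 in aPD-1 and 1 in control. The ratio was at least 61.5-fold for D+F+P against D+F, with D+F put at a floor of 3 UMIs for the library. Against the single control UMI the log2 ratio of D+F+P was 8.48 (5.99 to 13.78). Gzme had 100, 0, 51 and 1 UMIs in D+F+P, D+F, aPD-1 and control. Gzmf had 143 UMIs in D+F+P, 2 in control and none in D+F or aPD-1, and 1 cell held 96.5% of the D+F+P UMIs. Gzmg had 112 UMIs in D+F+P, of which 1 cell held 94.6%, 18 in aPD-1 and none in D+F or control. Gzmd came from 5 cells in D+F+P, of which 2 held 337 and 329 UMIs, from 2 cells with 138 and 97 UMIs in aPD-1 and from 1 cell in control. The values of Gzmd to Gzmg are therefore those of a few cells.

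Gzmc RNA sat in a minority of cells. Cells with 10 or more Gzmc UMIs (Gzmc-rich cells) were 20 of 104 and held 4006 of the 4025 Gzmc UMIs, or 99.5%. They were 11 of 32 in D+F+P (34.4%, interval 18.6% to 53.2%), 1 of 18 in D+F (5.56%, 0.141% to 27.3%), 5 of 26 in aPD-1 (19.2%, 6.55% to 39.4%) and 3 of 28 in control (10.7%, 2.27% to 28.2%). The D+F+P share was the highest, but its interval overlapped that of each other library. In control 1 cell held 54.5% of the Gzmc UMIs and in D+F 1 cell held 81.1%. Depth moved with this count: Gzmc-rich cells had a median of 9840 UMIs, against 2779 in the other NK cells. When each cell was thinned to 1000 UMIs, 12 of 30 cells in D+F+P (40.0%), 2 of 17 in D+F (11.8%), 5 of 26 in aPD-1 (19.2%) and 5 of 25 in control still had a Gzmc UMI. The thinned mean was 5.13, 0.588, 4.35 and 1.68 Gzmc UMIs per cell in D+F+P, D+F, aPD-1 and control, and the log2 ratio of D+F+P against control was then 1.61. Pigment-rich barcodes, which should lack the gene, had a Gzmc UMI in 0.84% of 5007 barcodes at a median of 17967 UMIs, against 30.8% of NK cells. They had 10 or more pigment UMIs and no UMI of the NK gate, Cd3 or Cd8 genes. That choice leaves out barcodes that hold such lymphocyte RNA, so their share is not a full measure of free RNA.

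Gzmc-rich cells carried little Ccl5, a chemokine of activated cytotoxic lymphocytes. Ccl5 stood at 214 CPM in the 20 Gzmc-rich cells, against 8827 CPM in the other 84 NK cells. At least 10 Ccl5 UMIs were seen in 2 of 20 Gzmc-rich cells, 50 of 84 other cells and 11 of the 20 other cells with at least 4066 UMIs, the depth of the shallowest Gzmc-rich cell. Those 20 had a median of 6132 UMIs, still under that of the Gzmc-rich cells. Other genes also differed in sums over the 4 libraries, given here as a description because the cells were chosen on Gzmc. Spp1 (osteopontin) was at 1408 CPM in Gzmc-rich and 57 CPM in other cells, Thy1 at 1070 and 399 CPM, Klrg1, an inhibitory receptor of mature cells, at 285 and 46 CPM, and Eomes at 71 and 242 CPM. Tyrobp was at 2639 and 2289 CPM. These sums come mostly from D+F+P and aPD-1, which held 11 and 5 of the 20 Gzmc-rich cells. In control, Gzmc-rich and other cells had 45.0 and 12.3 CPM of Spp1, 315 and 257 of Thy1 and 90.1 and 73.5 of Klrg1. Eomes was at 45.0 and 245 CPM there, and Tyrobp was reversed, at 991 and 2046 CPM. The 1 Gzmc-rich cell of D+F had no UMI of Spp1, Klrg1 or Eomes. Gzma had 6224 CPM in Gzmc-rich and 5971 CPM in other cells in sum, but the libraries differed. Gzmc-rich cells had 8687 CPM of Gzma in D+F+P, 738 in D+F, 1828 in aPD-1 and 0 in control, against 4120, 3277, 10751 and 4754 CPM in the other cells. Gzma was thus higher in the Gzmc-rich cells of D+F+P and lower in those of the other 3 libraries.

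UMIs of the T cell receptor constant genes were present at low levels in both kinds of NK cell. Summed over Trac, Trbc1, Trbc2 and Trdc they stood at 166 CPM in Gzmc-rich cells, against 185 CPM in the other NK cells. Trac stood at 9.51 CPM and Trbc at 128 CPM in Gzmc-rich cells, against 32.1 and 92.7 CPM in the others. The share of cells with a UMI was higher in the deeper Gzmc-rich cells for Trbc. A Trac UMI was found in 2 of 20 Gzmc-rich cells (10.0%) and 7 of 84 others, while a Trbc UMI was found in 14 of 20 (70.0%) and 18 of 84 (21.4%) and a Trdc UMI in 5 of 20 and 14 of 84. Trdc, of the gamma delta receptor, had a UMI in 18.3% of NK cells at 46.9 CPM, against 0.408% of T cells at 0.658 CPM. In T cells 65.9% of barcodes had a Trac UMI and 60.9% a Trbc UMI, and in pigment-rich barcodes 0.38% and 0.54%. The pigment-rich barcodes were chosen without NK gate, Cd3 or Cd8 UMIs, so these values can understate free RNA. The summed level of Trac was 22.4 CPM over the NK cells, against 307 CPM over the T cells. For Trbc the gap was smaller, at 108 CPM over the NK cells and 271 CPM over the T cells. Leaving out the cells with any Trac UMI left the Gzmc log2 ratio of D+F+P against control at 1.97. Leaving out every cell with any T cell receptor UMI, which removed 17 of the 20 Gzmc-rich cells and 34 of the 84 others, gave -2.64. That filter removed 10 of the 11 Gzmc-rich cells of D+F+P, 1 of 1 of D+F, 4 of 5 of aPD-1 and 2 of 3 of control, so its ratio rests on 1 such cell in D+F+P and 1 in control. The part that T cells or such transcripts play in the Gzmc ratio was not tested.

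**Figure D2:**
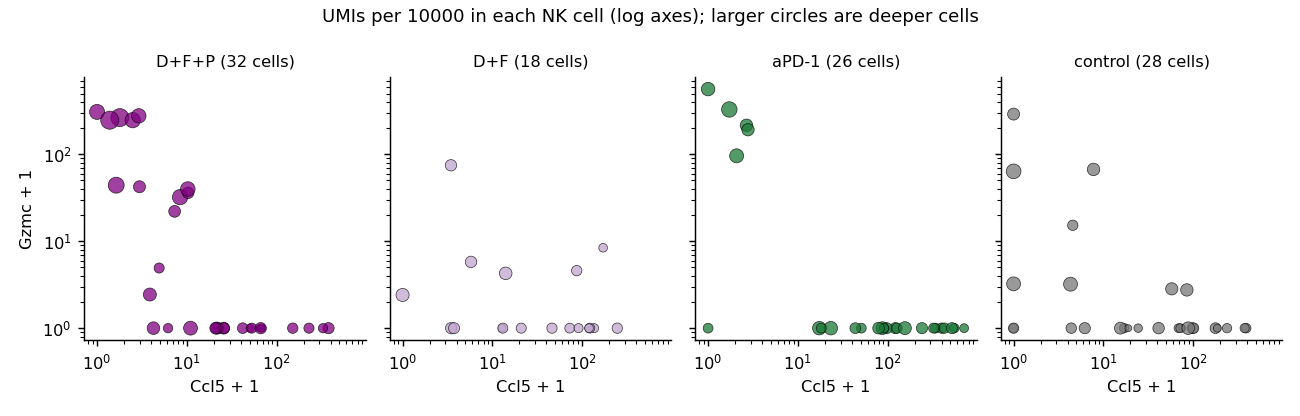
Gzmc against Ccl5 in each of the 104 intact NK cells, as UMIs per 10000 plus 1 on log axes, by library (D+F+P, D+F, aPD-1, control), with larger circles for deeper cells. The cells richest in Gzmc lie at low Ccl5, and most of them come from D+F+P (11 of 20) and aPD-1 (5 of 20).

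The best-known granule proteins varied less. Gzma, a tryptase, had 7141 CPM in D+F+P, 3085 in D+F, 7565 in aPD-1 and 3737 in control, with log2 ratios of 0.93 (0.77 to 1.10) for D+F+P and 1.02 (0.84 to 1.19) for aPD-1, both against control. Gzmb, which starts apoptosis by cleaving caspases and Bid, had 2986, 1282, 3247 and 1801 CPM in D+F+P, D+F, aPD-1 and control. Prf1 (perforin), the pore that lets granzymes in, had 884, 149, 611 and 453 CPM in the same order. In these 3 genes D+F+P and aPD-1 were above control and D+F below it. The direction between D+F+P and control depended on how cells were weighted: Gzma was at -0.16 with each cell counted equally, Gzmb at -0.35 and Prf1 at -0.65 after thinning to 1000 UMIs. No direction is therefore read for these 3 genes between D+F+P and control, although summed UMIs count them among the higher genes below. Nkg7, a granule membrane protein, stood at 1994, 1784, 2569 and 1705 CPM in D+F+P, D+F, aPD-1 and control. Serpinb6b ran the other way, at 519, 818, 929 and 1098 CPM, with a log2 ratio of -1.08 for D+F+P against control.

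Counted as a list of 21 cytotoxic granule genes, 16 could be compared (20 or more UMIs in the pair) between D+F+P and control, where 11 were at least 1.5-fold higher and 1 lower, with a median log2 ratio of 0.83. Of the 1979 genes compared, 14.9% were that much higher and 20% lower, and the median was -0.09. With libraries scaled by the median of ratios, 56.0% of the genes past the fold were higher in D+F+P, against 42.7% by CPM, and the median of all genes was 0.04. Between aPD-1 and control 8 of 12 were higher and 0 lower, at a background of 15.5% higher and 18.5% lower. Between D+F and control 0 of 10 were higher and 2 lower, at a background of 11.3% and 22.9%. Between D+F+P and D+F 9 of 15 were higher and 1 lower, with a median of 1.22, at a background of 26.3% and 13.6%. Median-of-ratios scaling put 76.9% of the genes past the fold higher in D+F+P than in D+F, against 65.8% by CPM. Between D+F+P and aPD-1 3 of 16 were higher and 1 lower, at a background of 15.9% and 16.3%. These counts are a description and support nothing: Gzmd, Gzme, Gzmf and Gzmg, 4 of the 11 genes higher in D+F+P than in control and 4 of the 9 higher than in D+F, passed the minimum of 20 UMIs only through D+F+P. Genes with under 10 UMIs in 1 library of the pair were 6 of 16 for D+F+P against control (also Ctsc and Serpinb9b). They were 6 of 15 for D+F+P against D+F (also Prf1 and Serpinb9b) and 2 of 12 for aPD-1 against control (Gzmd and Gzme). For D+F against control they were 1 of 10 (Prf1), and for D+F+P against aPD-1 2 of 16 (Gzmf and Ctsc). The last comparisons share the D+F+P library and the first 3 share the control library.

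**Figure D3:**
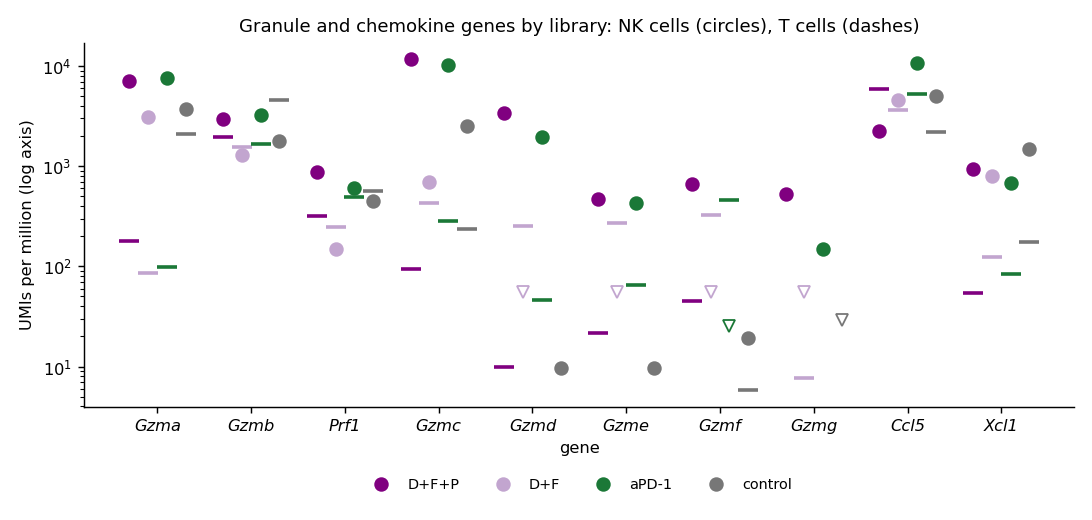
Granule gene levels in intact NK cells (circles) and in T cells of the same library (dashes), in CPM of summed UMIs on a log axis, for D+F+P, D+F, aPD-1 and control. Open triangles are genes with 0 UMIs, drawn at the floor of 3 UMIs. Gzmc and Gzmd separate the libraries most, with Gzmd at 3430 CPM in D+F+P, 1967 in aPD-1, 9.63 in control and 0 UMIs in D+F.

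Chemokines told the aPD-1 library from the D+F+P library. Ccl5 (chr11:83525778-83530518, minus strand, GRCm38) had 481 UMIs in D+F+P, 248 in D+F, 1268 in aPD-1 and 524 in control, or 2251, 4609, 10611 and 5047 CPM. In these sums it was highest in aPD-1 and lowest in D+F+P, with D+F near control. In the cells that were not Gzmc-rich it had 6153 CPM in D+F+P, 4965 in D+F, 16452 in aPD-1 and 6372 in control, so that D+F+P lay near control there. The log2 ratio was -1.16 (-1.35 to -0.98) for D+F+P against control, 1.07 (0.92 to 1.22) for aPD-1 against control and -2.24 (-2.39 to -2.08) for D+F+P against aPD-1. Ccl3, an inflammatory chemokine, had 42.1, 167, 527 and 250 CPM in D+F+P, D+F, aPD-1 and control. Against aPD-1 the log2 ratio of D+F+P was -3.65. Ccl4, its neighbour and relative, had 412, 242, 1146 and 414 CPM, and 1 cell held 70.5% of the D+F+P UMIs. Both were thus highest in aPD-1. Xcl1, the ligand of Xcr1 on dendritic cells, had 198, 43, 82 and 154 UMIs in D+F+P, D+F, aPD-1 and control, and its CPM was highest in control (927, 799, 686 and 1483 CPM). In control 2 cells held 43 and 42 of the UMIs. In the cells that were not Gzmc-rich D+F+P was highest (1272, 864, 664 and 821 CPM), and without cells that had a T cell receptor UMI the log2 ratio of D+F+P against control was 0.0012. Ifng was low everywhere, with 33, 7, 40 and 26 UMIs, and Cd7, a surface protein of NK and T cells, was at 183, 260, 552 and 241 CPM.

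Of the 18 genes in the list of cytokines, chemokines and death ligands, 8 could be compared between D+F+P and aPD-1, where 0 were at least 1.5-fold higher and 5 lower, with a median log2 ratio of -1.30, at a background of 15.9% higher and 16.3% lower. Between aPD-1 and control 4 of 8 were higher and 2 lower (background 15.5% and 18.5%). Between D+F+P and control 1 of 7 was higher and 4 lower (14.9% and 20%), and between D+F and control 0 of 7 were higher and 3 lower (11.3% and 22.9%).

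Cell-cycle genes were low in D+F. Mitotic cells, counted as those with 2 or more UMIs in the sum of Mki67, Top2a, Ccna2, Ccnb1, Ccnb2, Cdk1, Birc5 and Nusap1, were 8 of 32 in D+F+P (25%, interval 11.5% to 43.4%), 0 of 18 in D+F, which allows a share of up to 18.5%, 5 of 26 in aPD-1 (19.2%) and 7 of 28 in control (25%). With each cell thinned to 1000 UMIs, 3 of 30, 0 of 17, 2 of 26 and 4 of 25 cells had 2 or more such UMIs in D+F+P, D+F, aPD-1 and control, and 7, 3, 5 and 7 had at least 1, so the lack of mitotic cells in D+F was within counting error at this depth. Stmn1 (stathmin), which frees tubulin in dividing cells, had 127, 7, 44 and 70 UMIs in D+F+P, D+F, aPD-1 and control, with a log2 ratio of -2.37 for D+F against control. Pclaf, a partner of the replication clamp PCNA, had 328, 74.3, 83.7 and 405 CPM in the same order. It was high in D+F+P and control and low in the other 2. Of the 22 proliferation genes, 13 could be compared between D+F and control, where 0 were at least 1.5-fold higher and 11 lower, with a median log2 ratio of -1.64, at a background of 11.3% higher and 22.9% lower. Between D+F+P and D+F 13 of 17 were higher and 1 lower, at a background of 26.3% and 13.6%. The median there was 2.19, or 1.33 with the 2 genes that had no UMI in D+F put at their bounds. These list counts are a description and support nothing. Members with few UMIs in D+F, such as Birc5 with 2 against 20 in control, passed the minimum of 20 UMIs only through the other library. In D+F 5 of the 22 list genes had no UMI. Few cells carried the UMIs of this list: of 199 UMIs of the 8 mitotic genes in D+F+P, 4 cells held 62, 52, 40 and 26. Without cells that had a T cell receptor UMI the log2 ratio of Stmn1 between D+F+P and D+F was -0.24. Between aPD-1 and control 1 of 16 was higher and 10 lower, at a background of 15.5% and 18.5%. D+F also had the fewest and the shallowest NK cells. Mitotic cells were counted after thinning as given above, but the part of depth in the list counts was not tested. Tnfrsf9 (4-1BB), a co-stimulatory receptor of activated lymphocytes, was likewise lowest in D+F, at 702, 204, 544 and 867 CPM in D+F+P, D+F, aPD-1 and control.

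D+F was higher in a few early-response and stress genes. Fos, an immediate early transcription factor, had 267, 632, 276 and 183 CPM in D+F+P, D+F, aPD-1 and control, with a log2 ratio of 1.79 (0.94 to 2.68) for D+F against control, and 1 cell held 38.2% of the D+F UMIs. Hspa5 (BiP), the chaperone of the endoplasmic reticulum, had 786, 1412, 519 and 626 CPM in the same order. Eif3f, a subunit of an initiation factor of translation, had 997, 1096, 787 and 414 CPM and was lowest in control. Of the immediate early list of 30 genes, 24 could be compared between D+F and control, where 9 were higher and 7 lower, at a background of 11.3% and 22.9%. Of 26 between D+F+P and control 6 were higher and 4 lower, at a background of 14.9% and 20%.

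**Figure D4:**
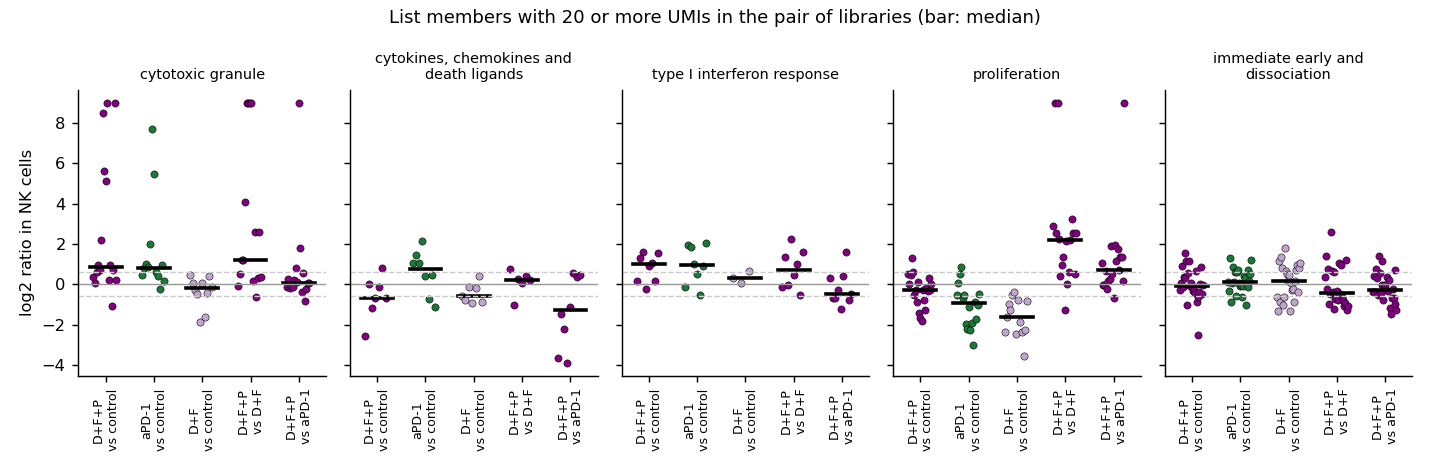
Log2 ratios of summed CPM in intact NK cells for the members with 20 or more UMIs of the cytotoxic granule, cytokine, type I interferon, proliferation and immediate early lists, in the 5 pairs of libraries. Bars are medians, dashed lines mark 1.5-fold, and points at the top edge are genes with 0 UMIs in the other library. The proliferation genes lie low in D+F against control (median -1.64), and the cytokine list lies low in D+F+P against aPD-1 (median -1.30). Members can pass the minimum of 20 UMIs through 1 library of a pair only, so the medians are a description.

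Surface and secreted proteins differed too. Spp1 had 229 UMIs in D+F+P, 5 in D+F, 76 in aPD-1 and 2 in control, with a log2 ratio of 5.80 (3.93 to 8.85) for D+F+P and 5.04 (3.14 to 8.12) for aPD-1 against control. Without cells that had a T cell receptor UMI, the ratio of D+F+P was -2.24 against D+F and -2.96 against aPD-1. S100a6, a small calcium-binding protein, had 1596, 446, 1623 and 250 CPM in D+F+P, D+F, aPD-1 and control. Both were high with the antibody, and both ran the same way over the kept barcodes as a whole, where Spp1 was at 367, 34.2, 216 and 38.0 CPM and S100a6 at 748, 138, 713 and 71.8 CPM. The part of free RNA in these ratios was not tested. Thy1, a surface glycoprotein of T cells and of some NK cells, had 973, 520, 611 and 270 CPM, with a log2 ratio of 1.85 for D+F+P against control. Dusp2, a phosphatase of MAP kinases, stood at 889 CPM in D+F+P, 149 in D+F, 335 in aPD-1 and 308 in control. Ly6a (Sca-1), an interferon-inducible surface protein, had 566, 279, 184 and 270 CPM and was highest in D+F+P.

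Receptors and adaptors varied within narrower limits. Klrg1 had 41, 0, 24 and 8 UMIs in D+F+P, D+F, aPD-1 and control, from 4, 0, 7 and 6 cells. Tigit, an inhibitory receptor for Pvr, had 55, 22, 33 and 17 UMIs in the same order, a log2 ratio of 1.32 for D+F against control. Klra7 (Ly49G) was at 318, 223, 611 and 202 CPM, and its log2 ratio of 1.59 for aPD-1 against control stands beside the uncertainty of the Klra copies. Tyrobp had 2485, 2174, 3013 and 1821 CPM and Fcer1g 2359, 1468, 2310 and 1291 CPM, both highest in the 2 libraries with the antibody. Of the 28 type I interferon genes, only 8 could be compared between D+F+P and control, where 5 were at least 1.5-fold higher and 0 lower (median 0.998), at a background of 14.9% and 20%. Between aPD-1 and control 5 of 8 were higher and 0 lower (background 15.5% and 18.5%), and between D+F and control 1 of 3 was higher (11.3%). These counts are a description and support nothing, since members can pass the minimum of 20 UMIs only through the library where they are higher. In control 8 of the 28 genes had no UMI. Ifi47, an interferon-induced GTPase, had 31, 8, 21 and 5 UMIs in D+F+P, D+F, aPD-1 and control, and Zbp1, a sensor of nucleic acids, had 24, 2, 19 and 4. Scaled to each library's NK sum, Zbp1 was higher in the libraries with the antibody, whereas Ifi47 in D+F was not below D+F+P. Both rest on low counts, and against control both passed the minimum of 20 UMIs in D+F+P only through D+F+P.

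Genes of the actin cytoskeleton, through which ROCK kinases act, seldom passed 1.5-fold between libraries. Of 22 such genes 18 could be compared between D+F and control, where 1 was at least 1.5-fold higher and 0 lower, at a background of 11.3% and 22.9%. Between D+F+P and control 21 could be compared, where 1 was higher and 2 lower, at a background of 14.9% and 20%. Rhoa, the GTPase upstream of ROCK, had 730, 650, 586 and 732 CPM in D+F+P, D+F, aPD-1 and control, and Actb (beta actin) had 9537, 6950, 10000 and 7523 CPM. Rac1, a GTPase of the leading edge, had 47, 3, 6 and 13 UMIs, with a log2 ratio of 2.13 (0.90 to 3.65) for D+F+P against aPD-1, which was -0.64 without cells that had a T cell receptor UMI. Of the genes of metabolism, 1 of 16 was higher and 3 lower in D+F+P against control (background 14.9% and 20%), and 0 of 16 higher and 4 lower in aPD-1 against control (15.5% and 18.5%). In aPD-1 the glycolytic gene Pkm had 753 CPM, against 1628 CPM in control.

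Cd74, the invariant chain of MHC class II, was lower in each treated library, at 229, 427 and 92.1 CPM in D+F+P, D+F and aPD-1, against 925 CPM in control. The log2 ratio was -2.01, -1.11 and -3.33 in that order. In control 1 cell held 53.1% of the UMIs, and without cells that had a T cell receptor UMI the log2 ratios were 0.36, 2.43 and 0.73. The myeloid marker list, which holds Cd74 itself, summed to 337, 576, 427 and 1368 CPM in D+F+P, D+F, aPD-1 and control, with 10, 10, 8 and 6 of its 14 genes at 0. Without Cd74 the sum was 108, 149, 335 and 443 CPM, and without H2-Aa and H2-Ab1 as well it was 14.0, 92.9, 301 and 106 CPM. The macrophage genes C1qa, C1qb, C1qc, Adgre1 and Csf1r were at 0 in the NK cells of all 4 libraries. The part of myeloid RNA in this ratio was not tested.

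NK cells were then set against T cells of the same libraries, the lymphocytes most like them. UMIs were summed per library and cell type and tested with the library as a block, so that the 4 libraries served as replicates. Genes of either gate are not read as results. Of 2390 genes tested, 175 (7.32%) were higher and 104 (4.35%) lower in NK cells by edgeR's quasi-likelihood test with Benjamini-Hochberg adjustment. These shares are the background for each list count below. The p-values measure the spread between these 4 libraries, which differ in treatment.

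The receptor adaptors Tyrobp and Fcer1g had the lowest p-values among the higher genes. Tyrobp (chr7:30413760-30417585, plus strand) had 2485, 2174, 3013 and 1821 CPM in the NK cells of D+F+P, D+F, aPD-1 and control, against 35.7, 11.1, 56.9 and 11.6 CPM in the T cells, a log2 fold change of 6.46 ± 0.26 (SE, adjusted p = 7.72e-10, edgeR). Fcer1g was higher by 4.95 ± 0.22 (adjusted p = 2.17e-09, edgeR). The groups did not overlap in either gene. Irf8, a transcription factor of myeloid cells that NK cells also use, had 1231, 1004, 1314 and 1300 CPM in NK cells, against 194, 207, 213 and 81.5 CPM in T cells (2.88 ± 0.19, adjusted p = 8.56e-08, edgeR). Eomes had 131, 167, 209 and 202 CPM in NK cells, against 27.4, 16.2, 17.0 and 11.6 CPM in T cells (3.17 ± 0.32, adjusted p = 9.20e-06, edgeR). Of 14 genes in the adaptor list 9 were tested, 2 rose and 4 fell, and of 27 transcription factors 15 were tested, 5 rose and 4 fell. Car2 (carbonic anhydrase 2), Atp1b1, a subunit of the sodium pump, and Txk, a Tec family kinase, were also higher, by 4.65, 4.40 and 2.59 on the log2 scale. Klra7 was higher by 5.91 and Klrk1 (NKG2D), an activating receptor for stress ligands, by 1.33 (adjusted p = 0.000838, edgeR). Each of these 5 genes was higher in NK cells in 4 of 4 libraries. The Klra7 value is not independent of the gates. NK cells could enter on Klra8 or Klra4 UMIs, T cells had none of them, and the Klra copies are near-identical. The genes of the adaptor list that fell were Lat by 3.32 on the log2 scale, Cd247 (CD3 zeta) by 1.21, Lck by 0.97 and Zap70 by 0.85 (adjusted p = 0.0497, edgeR). Zap70 no longer passed without the control, aPD-1 or D+F+P library (adjusted p = 0.102, 0.239 and 0.178, edgeR).

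Among secreted proteins, Xcl1 was higher in NK cells, at 927, 799, 686 and 1483 CPM, against 54.5, 124, 84.5 and 175 CPM in T cells (log2 3.40 ± 0.21, adjusted p = 4.09e-08, edgeR). Ccl5 and Ifng did not pass, at log2 0.43 (adjusted p = 0.411, edgeR) and 0.30 (adjusted p = 0.569, edgeR). Without the D+F+P library Ccl5 was at 0.96 (adjusted p = 0.000914, edgeR), so that library decides the call.

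Granule genes split. Gzma was higher in NK cells by 4.76 ± 0.70 on the log2 scale (adjusted p = 0.000294, edgeR), with T cells at 180, 85.2 and 98.0 CPM in D+F+P, D+F and aPD-1 but 2083 CPM in control, whose T cell sum rests on 37 cells. Gzmc was higher by 4.46 ± 0.74 (adjusted p = 0.000868, edgeR), with T cells at 93.8, 425, 282 and 239 CPM in D+F+P, D+F, aPD-1 and control. T cells with an NK gate UMI were left out of these T cell sums. Gzmb, Prf1 and Nkg7 did not pass, at log2 0.14, 0.54 and 0.28 (adjusted p = 0.807, 0.242 and 0.174, edgeR). Of the 21 granule genes 13 were tested, 6 rose and 1 fell, Gzmk, by 4.09, at a background of 7.32% and 4.35%. Gzme, among those that rose, lost the call under DESeq2 (adjusted p = 0.588) and without control (adjusted p = 0.101, edgeR). It also lost the call without the library as a block (adjusted p = 0.282, edgeR). With T cells that carried NK gate UMIs put in, Gzme was at log2 0.85 (adjusted p = 0.367, edgeR). The granzyme inhibitors Serpinb9 and Serpinb6b rose by 1.54 and 1.75.

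Checkpoint receptors of T cells were lower in NK cells. Of 14 inhibitory receptor genes 7 were tested, 1 rose and 4 fell, Pdcd1 among them, with a median log2 change of -2.44, against -0.01 over all tested genes. Ctla4 fell by 3.16, Lag3 by 2.61 and Havcr2 (TIM-3) by 2.44, while Klrg1 rose by 2.29 (adjusted p = 0.0057, edgeR), a call lost without aPD-1 (adjusted p = 0.0732, edgeR) and under DESeq2 (adjusted p = 0.149). Pdcd1, the target of the antibody, had no UMI in the 104 NK cells, which allows up to 2.88% of cells with a UMI, a limit that does not bound the cells expressing the gene, against 2837 UMIs in T cells, at least 76.3-fold higher in T cells with the NK sum put at 3 UMIs. Tnfrsf4 (OX40), Cd5 and Cd6 also had no NK UMI, with T cells at least 62.7-fold, 22.7-fold and 26.8-fold higher. Of the 16 genes that mark type 1 innate lymphoid cells and tissue residency 5 were tested, 1 rose (Xcl1) and 3 fell. Cxcr6, a chemokine receptor of resident lymphocytes, fell by 4.58, Il21r by 2.10 and Rora by 1.70, while Cd69 was at 0.35 and did not pass. The residency genes Itgae and Zfp683 had no UMI in the NK cells of any library, and Itga1 had 4, 0, 1 and 1 UMIs in D+F+P, D+F, aPD-1 and control.

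Interferon-induced Ifi27l2a was lower in NK cells, at 126, 167, 343 and 154 CPM in D+F+P, D+F, aPD-1 and control, against 1854, 1794, 3240 and 3294 CPM in T cells (log2 -3.61 ± 0.19, adjusted p = 1.26e-08, edgeR). Of 8 type I interferon genes tested 0 rose and 2 fell, Ly6a among them by 1.82. Immediate early genes ran the other way: 14 of 26 tested rose and 0 fell, with a median log2 change of 0.70, at a background of 7.32% and 4.35%. Among them Maff rose by 3.28, Atf3 by 2.16, Jun by 1.28, Fos by 1.22 and Nr4a1 by 1.13. Fosb and Fosl2 lost the call under DESeq2 (adjusted p = 0.0686 and 0.0675) and in other settings. Ier2 lost it without control, aPD-1 or D+F (adjusted p = 0.0598, 0.0992 and 0.0986, edgeR), and Dusp1 after thinning (adjusted p = 0.125, edgeR). Of 10 cytokine receptors tested 4 rose and 1 fell, with Il12rb2, a chain of the interleukin 12 receptor, up by 1.83 and Il2rb, which serves interleukins 2 and 15, up by 0.64 (adjusted p = 0.00609, edgeR). Il2rb missed the threshold without control, aPD-1 or D+F+P (adjusted p = 0.0567, 0.0749 and 0.0671, edgeR). Of 20 proliferation genes tested 0 rose and 1 fell, near the background of 7.32% and 4.35%, so no shift is read from that count. Of 16 genes of metabolism 0 rose and 3 fell at the same background, Ldha and Gapdh of glycolysis by 0.53 and 0.54 and the hypoxia factor Hif1a by 0.88. Hif1a missed the threshold without control, D+F or D+F+P (adjusted p = 0.0635, 0.0646 and 0.112, edgeR). It also missed the threshold against CD8 T cells only (adjusted p = 0.175, edgeR).

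**Figure D5:**
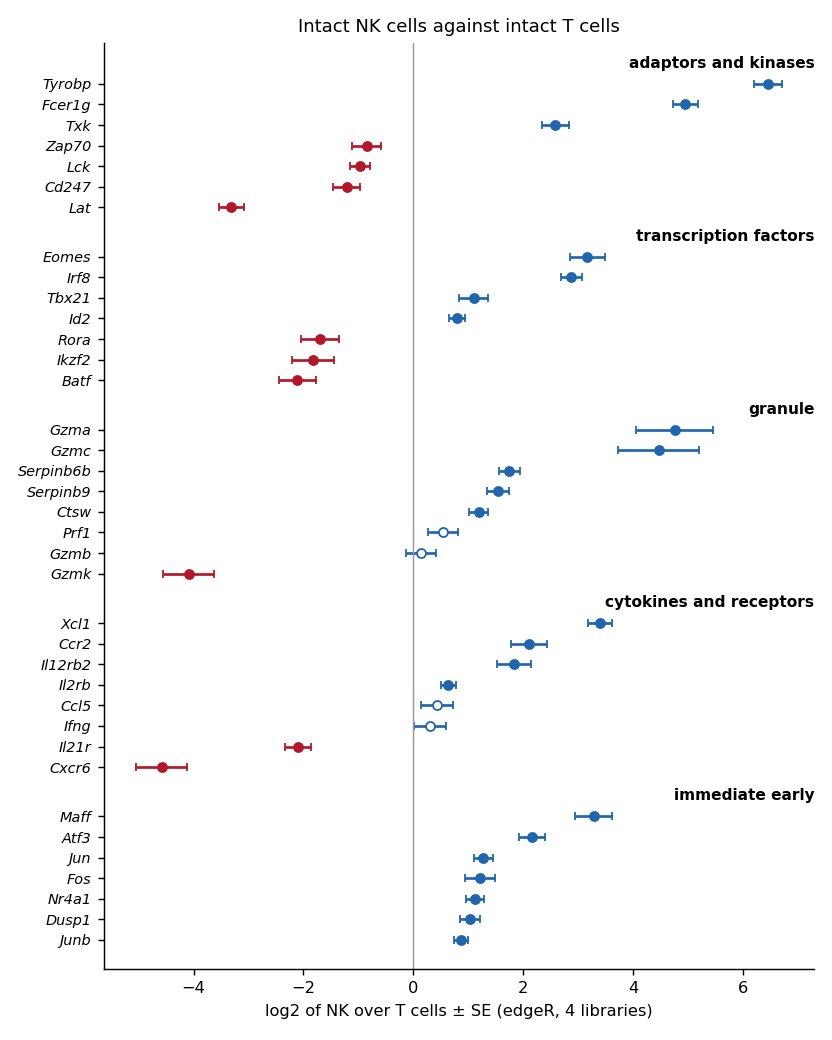
Log2 fold change of intact NK cells over T cells of the same 4 libraries, with SE, for genes of 5 groups (edgeR's quasi-likelihood test). Open circles have an adjusted p that is not under 0.05. Tyrobp (6.46) and Fcer1g (4.95) lie far to the side of the NK cells, and Cxcr6 (-4.58), Gzmk (-4.09) and Lat (-3.32) lie to the side of the T cells.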

How the data were processed

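Tumours were dissociated and profiled with the 10x Chromium 5′ single-cell kit, per the labels' protocols, as 4 libraries, 1 per group. The authors deposited raw UMI counts per gene and barcode, not normalised, made with Cell Ranger 3.1.0 on GRCm38 (mm10), per the submitters' processing notes. How their barcodes were chosen beyond this is not given in the sources used here. Members were gated as described above. No doublet caller was run: the gate removes barcodes with CD3, CD8 or many pigment UMIs. By a count over part of the myeloid list, without Cd74, 2 members carried 2 or more UMIs of myeloid markers. Cd74 itself had a UMI in 38 of the 104 members and 10 or more UMIs in 5. The members, the 27 gene lists and the comparisons were chosen with earlier results of these data known, and support nothing by themselves.

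Between libraries the UMIs of the NK cells were summed and given as CPM. Ratios have exact conditional binomial 95% intervals, genes needed 20 UMIs in the pair, and a gene counts as higher or lower from 1.5-fold, with no test. A gene can reach that minimum through 1 library of the pair only, so counts over lists are a description. Named genes were list members and, per pair, the 5 genes each way whose interval lay farthest from equal levels, among genes with 50 UMIs. Genes under 25% of the CPM of all kept barcodes were left out of that choice, as were mitochondrial, ribosomal, receptor-segment, gate and unnamed genes. Some other list members were singled out after their values were seen. Shares have Clopper-Pearson intervals. NK and T cell sums were compared with edgeR 4.0.16 (R 4.3.3; filterByExpr, TMM, quasi-likelihood test, library as block), adjusted over all genes tested, with named genes taken from the lists and from the 10 genes of lowest p in each direction, some of which are not reported here. On simulated data for this comparison (2401 genes), the fit found 50 of 50 genes set higher by 2 on the log2 scale, 37.2% of those set higher by 1, and called 2 of 2251 unaltered genes. The simulation gave all genes the same dispersion and altered only genes with many UMIs. Its rates therefore need not hold for genes carried by a few cells. DESeq2 1.42.0, other scalings, thinning to 1000 UMIs, other gates and leaving out each library were tried as alternatives. Depths are in the text above, and intervals cover counting error only. Python 3.11.15 with numpy 2.4.6, scipy 1.17.1, pandas 2.3.3 and matplotlib 3.10.9 was used for the rest. Promoter sequences are RefSeq's (GRCm38.p6).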

Additional observations from a re-analysis of the deposited data

Results flagged for a closer look

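Some genes moved one way in the NK cells and the other way in the T cells of the same 2 libraries. These differences between cell types were not tested, since each group is 1 library, and the control T cell sum rests on 37 cells.

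For D+F+P against control, the log2 ratio of Ccl3 was -2.57 in NK cells and 1.52 in T cells, and that of Ccl5 was -1.16 in NK cells and 1.44 in T cells. Granule genes ran the opposite way: Gzma was at 0.93 in NK cells and -3.54 in T cells, Gzmb at 0.73 and -1.22, Gzmc at 2.20 and -1.35, and Prf1 at 0.97 and -0.86. The NK values of Gzma, Gzmb and Prf1 changed sign with the weighting of cells. For aPD-1 against control, Gzma was at 1.02 in NK cells and -4.41 in T cells, Gzmb at 0.85 and -1.46, Spp1 at 5.04 and -0.91, and Cd74 at -3.33 and 0.72.

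For D+F against control, Gzmc was at -1.89 in NK cells and 0.83 in T cells, and the nuclear RNA Malat1 at 0.74 and -0.88. For D+F+P against D+F, Gzmc was at 4.09 in NK cells and -2.18 in T cells, and Ccl5 at -1.03 and 0.71. For D+F+P against aPD-1, Cd7 was at -1.60 in NK cells and 0.93 in T cells.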

How the results depend on the processing

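The order of the shares, with D+F lowest and D+F+P highest among kept barcodes and control highest among NK plus T cells, held in each of the 10 gate settings. Of kept barcodes, D+F+P was at 1.88% with no ribosomal minimum, 2.04% with a gate of 1 NK UMI and 2.29% with filters of 1000 UMIs and 10% mitochondrial UMIs. After thinning to 1000 UMIs aPD-1 was at 0.562% and control at 0.610%. Of NK plus T cells, D+F+P was at 10.8% with a gate of 1 NK UMI and 4.46% thinned, D+F at 3.92% with Ncr1 and Klrb1c only and 4.33% thinned, and aPD-1 at 5.15% and 3.1%.

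The counts of genes at least 1.5-fold apart follow how many genes can be compared. In the order D+F+P, aPD-1 and D+F against control, D+F+P against D+F and D+F+P against aPD-1, the genes higher and lower were 59 and 54, 36 and 44, 33 and 49, 62 and 33, 53 and 46 after thinning; 111 and 117, 77 and 91, 63 and 94, 87 and 66, 79 and 75 without cells that had a T cell receptor UMI. They were 103 and 98, 74 and 71, 25 and 60, 120 and 59, 72 and 79 with 50 UMIs in the pair; 3227 and 3268, 3114 and 3110, 2548 and 3988, 4576 and 2553, 3358 and 3216 with no minimum. Without the 2 deepest NK cells of each library, 281 genes were higher in D+F+P than in D+F.

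Single genes changed direction as follows, as log2 ratios, and the cause was not tested. After thinning, D+F+P against control gave Gzmb -0.35, Klra7 -0.26 and Prf1 -0.65; against D+F, Ccl4 -0.0121 and Thy1 -0.70; against aPD-1, Thy1 -0.83. With each cell counted equally, D+F+P against control gave Gzma -0.16, Klra7 -0.28 and Prf1 -0.0726, and D+F against control gave Malat1 -0.0775. Without cells with a T cell receptor UMI, D+F+P against control gave Cd74 0.36, Gzma -0.0813, Gzmc -2.64, Klra7 -1.02, Prf1 -0.11, Rac1 -1.23 and Xcl1 0.0012. Cd74 was then at 0.73 in aPD-1 and 2.43 in D+F against control. D+F+P against D+F gave Spp1 -2.24 and Stmn1 -0.24, and against aPD-1 Cd74 -0.37, Rac1 -0.64, Spp1 -2.96, Stmn1 -1.44, Thy1 -0.0520 and Top2a -0.0520. Gzmc-rich cells were then 6.25% in D+F+P and 0% in D+F. Without cells with a Trac UMI, D+F+P against aPD-1 gave Gzmd -0.11 and Gzmg -2.48. Without the 2 deepest NK cells, D+F+P against control gave Gzmb -0.36 and Klra7 -0.0750. The last 2 of these settings were chosen after seeing the data.

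For NK against T cells, thinning left 32 genes higher and 23 lower of 439 tested, and with no filter on low counts 336 were lower of 14721 tested. Leaving out 1 library gave between 98 and 212 higher and between 66 and 147 lower. DESeq2 called 124 higher and 74 lower, of which 197 were shared with edgeR. Over the named genes and settings, 997 values kept their call, 74 lost it, 20 gained one and none changed direction. NK and T cells were paired by library, and without the library as a block 167 were higher and 97 lower. No paired analysis was possible because each group has 1 library, for the comparisons between treatment groups. With 104 cells, genes under 20 UMIs in a pair could not be compared.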
